A study of Caenorhabditis elegans with 6 samples.

Results

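The worm's epidermis makes short secreted peptides that protect it against fungi and wounds. The genes examined here are those whose WormBase symbol begins with *cnc-*, *fip-* or *fipr-*, together with *nlp-27* to *nlp-34*. They were chosen by name alone, and 55 of the 20392 genes in the count table met the rule: 11 *cnc* genes, 7 *fip* genes, 29 *fipr* genes and 8 *nlp* genes. Total RNA was sequenced from whole first-stage (L1) larvae of *Caenorhabditis elegans*, in 3 libraries of the wild-type strain N2 and 3 of strain XA6227, of genotype mrg-1 -/-. *mrg-1* encodes a chromodomain protein that binds chromatin, and the labels do not name the mutant allele. Embryos of both strains hatched in M9 buffer for 18 h and were fed again for 2 h and 30 min. The mutant larvae came from homozygous mothers picked by hand for lacking a rolling balancer, whereas wild-type mothers were washed from plates, so picking and genotype cannot be told apart. Each library holds RNA of many larvae, and the labels name no infection or wounding.

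The peptides are a line of innate defence in the epidermis (hypodermis), the tissue that also secretes the cuticle. In adult worms the fungus *Drechmeria coniospora*, which grows through the cuticle, raises transcription of *nlp-29* and its neighbours through a p38 MAP kinase cascade (TIR-1, NSY-1, SEK-1, PMK-1) that acts on the STAT-like factor STA-2. The caenacin (*cnc*) genes are known for a second route, in which the TGF-beta ligand DBL-1, made by neurons, acts through receptors and the Smad protein SMA-3 in the epidermis. The names *fip* and *fipr* stand for fungus-induced protein and fungus-induced protein related.

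The libraries held 19238422 to 39063186 counts, and differences below are given in CPM, the counts of a gene scaled to a fixed library total, after TMM factors had adjusted the totals for a few very abundant genes. In wild-type libraries 1, 2 and 3 mitochondrial genes took 10.64%, 23.12% and 45.56% of all counts, and in mutant libraries 8.418% to 12.43%, and results are therefore also given without single wild-type libraries where these decide a value. The *mrg-1* transcript stood at 30.2, 15.9 and 18.8 CPM in wild-type larvae and 2.11, 5.61 and 5.15 CPM in the mutant, so the groups did not overlap (log2 fold change -2.33, SE 0.53, edgeR adjusted p = 0.0413). DESeq2 gave an adjusted p of 0.00028, and limma on the deposited log2 values gave 0.0761, short of a call. Markers of epidermis, listed from general knowledge, were detected as a set in every library, though not each of them. Their summed level was 691 to 759 CPM in wild-type larvae and 682 to 750 CPM in the mutant. The largest part was the junction gene *ajm-1*, at 221 to 368 CPM in wild-type larvae and 401 to 440 CPM in the mutant. Among the tested markers 7 had a negative log2 fold change and 4 a positive one, so similar sums do not stand for equal markers. In 5 of them every mutant library lay below the wild type, and in 2, *ajm-1* and *rol-6*, above it. Over all tested genes these shares were 12% and 14.4%. The similar sums depend on *ajm-1*, which went against those 5, and no sum was taken without it. Of 11 tested epidermal markers 1 was called higher and 0 lower in edgeR (2 each way at an unadjusted p under 0.05, and 1 each way in DESeq2), with a median log2 fold change of -0.59. The called gene, the cuticle collagen *rol-6*, had 0 counts in wild-type larvae and 176 in the mutant, at least 57.9-fold higher against a floor of 3 counts over the wild-type libraries. The mutant strain also carried a rolling balancer, which the picked mothers lacked, and whether it bears on *rol-6* was not tested. Another collagen gene of the list, *dpy-5*, had 1 count in all. Summed intestinal markers were uneven among the wild-type libraries (4530, 3000 and 1270 CPM, against 2790 to 4260 CPM in the mutant), as did pharyngeal ones (3180, 1350 and 793 CPM, against 2540 to 3340 CPM). In whole larvae, fewer cells of a type and less RNA per cell cannot be told apart.

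Most of these peptide genes were weak or silent in L1 larvae of either genotype. No library had a count for 15 of the 55, among them *cnc-1*, *cnc-5*, *cnc-9*, *fip-3*, *fip-7* and 10 of the 29 *fipr* genes, whereas each of the 8 *nlp* genes was detected somewhere. A count of 0 over a group allows a level of up to 0.0397 CPM in wild-type larvae and 0.0392 CPM in the mutant, by counting error alone. The mutant libraries held counts for 32, 34 and 37 of the genes and the wild-type libraries for 28, 28 and 27. The same held across the genome, where 78.8% to 83.1% of all genes had a count in the mutant libraries and 69.1% to 75.8% in the wild type. Counts in the mutant alone were found for 6 genes (*cnc-7*, *fipr-14*, *fipr-17*, *fipr-18*, *fipr-25* and *fipr-29*) and counts in the wild type alone for 2 (*fipr-5* and *fipr-11*). *cnc-7* had 0 against 13 counts, spread over all 3 mutant libraries, and was at least 4.27-fold higher against the floor. All 12 counts of *fipr-14* lay in mutant library 3.

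Among the genes that were expressed, the ranking by level per kilobase of deposited gene length ran from *fipr-1* downward. Averaged over the 6 libraries, *fipr-1* stood at 66.4 CPM per kilobase, followed by *nlp-31* at 44.6, *nlp-29* at 40.6, *fipr-2* at 32.8, *nlp-33* at 32.6 and *fip-2* at 25.4 CPM per kilobase. The highest caenacin was *cnc-4*, at 12.1 CPM per kilobase. Over all genes *fipr-1* ranked 1302 of 20392 by this mean. The order of the means differed by genotype: *fipr-1* led in the wild type but stood at 13.5 ± 4.13 CPM per kilobase in the mutant, where *nlp-29* (58.9 ± 20.3) and *nlp-31* (51.9 ± 5.31) were the highest (SD, n = 3 each). Neighbours in the order mostly did not differ beyond their spread: in the wild type *nlp-31* lay at 37.3 ± 9.78, *fipr-2* at 38.9 ± 18.9 and *nlp-33* at 32.6 ± 1.23 CPM per kilobase (SD, n = 3). The deposited length equalled the annotated exon length in only 7 of the 55 genes. That of *nlp-27* was 603 against 316 bases, and with annotated lengths it moved from place 9 to place 4 and *fipr-2* from place 4 to place 8.

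*fipr-1* fell in the mutant and *cnc-6* rose, and these were the only changes that passed the test. The expression filter left 23 of the 55 genes to be tested (6 *nlp*, 5 *cnc*, 4 *fip* and 8 *fipr*). Of these, 1 was called higher and 1 lower (edgeR quasi-likelihood test over 13460 genes, Benjamini-Hochberg adjusted p under 0.05), beside 1.75% of all tested genes called higher and 0.847% called lower. A further 5 genes were higher at an unadjusted p under 0.05: *fip-6*, *fipr-26*, *nlp-29*, *cnc-4* and *fipr-23*. With *cnc-6* that made 6 of the 23 higher and, with *fipr-1*, 1 lower at that level, where 9.29% of all tested genes were higher and 10.2% lower. Over the tested peptide genes the median log2 fold change was 0.87, and over all tested genes it was -0.03, where 236 were called higher and 114 lower. Scaled by library totals alone that genome-wide split was 204 against 11, and on the deposited log2 values it was 480 against 34. The 3 mutant libraries lay above all 3 wild-type libraries in 7 of the 23 and below them in 1, where 14.4% and 12% of all tested genes did so. Among the tested genes *cnc-6* and *fip-6* reached the expression minimum of 10 counts in the mutant only and were kept because they were high there, so these counts and this median do not stand for all 55 genes. DESeq2 also gave an adjusted p to *cnc-2*, *cnc-11*, *nlp-32* and *nlp-34*, outside those 23. Of the 55 genes it called 3 higher (*cnc-6*, *fip-6* and *fipr-26*) and 1 lower (*fipr-1*), beside 5.43% and 4.35% of the genes it tested. In limma on the authors' deposited log2 values, *cnc-4* joined those 3 as higher and *fipr-1* was again lower, beside 3.57% and 0.253% of genes.

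**Figure D1:**
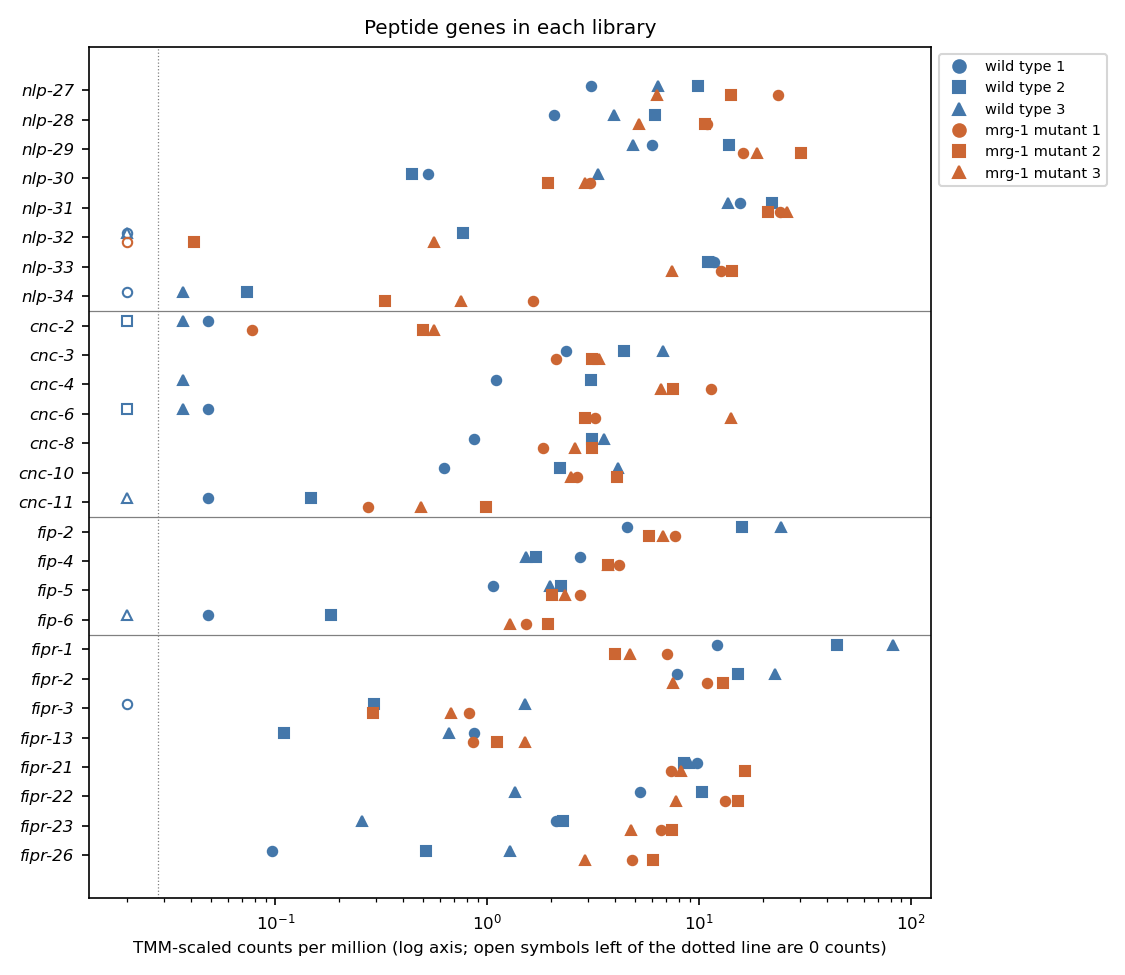
TMM-scaled CPM on a log axis of the 23 tested peptide genes and of *nlp-32*, *nlp-34*, *cnc-2* and *cnc-11*, with 1 symbol per library (circle, square and triangle for replicates 1, 2 and 3; blue wild type, orange mutant). The 3 mutant libraries lie to the right of the wild type in *cnc-6* and to the left of it in *fipr-1*, and the wild-type symbols are often the more widely spread.

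**Figure D2:**
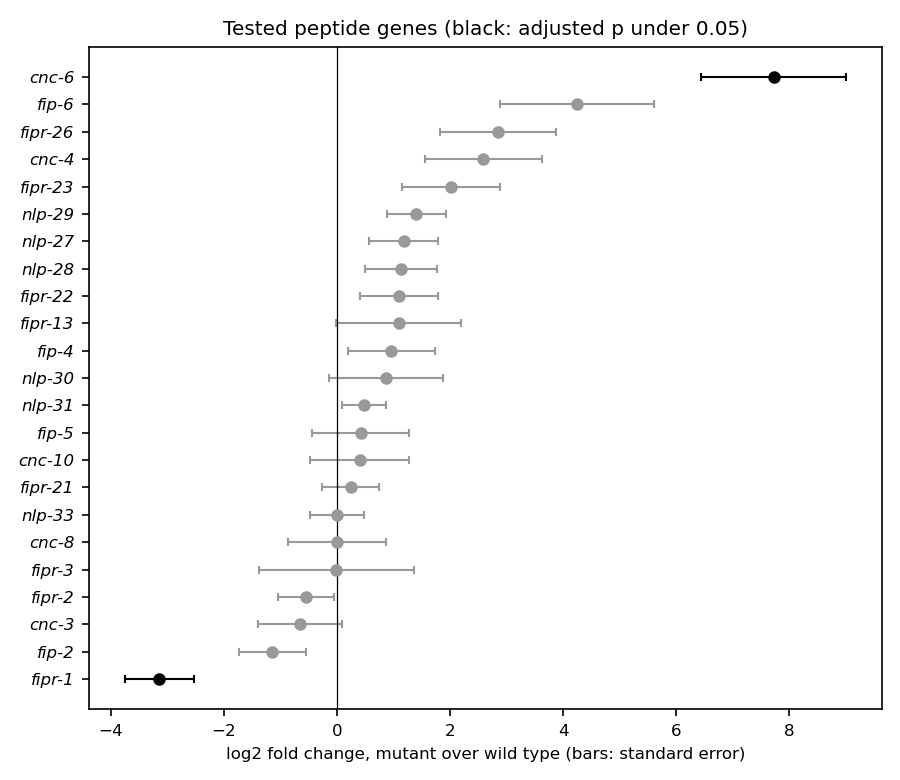
Log2 fold change of mutant over wild type for each of the 23 tested peptide genes, with bars of 1 standard error. The called genes, drawn in black, lie at the ends of the range, *fipr-1* at -3.14 and *cnc-6* at 7.72.

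The genes of the *nlp-29* locus stood higher in the mutant on average, but none passed the test. The locus is a row of 6 genes, *nlp-34*, *nlp-31*, *nlp-30*, *nlp-29*, *nlp-28* and *nlp-27*, on chromosome V (3978825 to 3989770 in WBcel235). *nlp-29*, the usual reporter of epidermal infection and wounding, stood at 5.96, 13.8 and 4.85 CPM in wild-type larvae and 16.1, 30.2 and 18.7 CPM in the mutant. Every mutant library was above every wild-type library, though wild-type library 2 came close to mutant library 1. The means were 8.21 ± 4.89 and 21.7 ± 7.48 CPM (SD, n = 3 each), with a log2 fold change of 1.40 (SE 0.52, edgeR adjusted p = 0.161).

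Its neighbours *nlp-27* and *nlp-28* differed by a like amount with more overlap. *nlp-27* had 3.07, 9.90 and 6.39 CPM in wild-type larvae and 23.5, 14.1 and 6.35 CPM in the mutant, where library 3 sat within the wild-type range. *nlp-28* had 2.07, 6.16 and 3.98 CPM in wild-type larvae and 10.9, 10.6 and 5.22 CPM in the mutant, again with library 3 inside that range. Their log2 fold changes were 1.18 (SE 0.61) and 1.13 (SE 0.64), with edgeR adjusted p values of 0.310 and 0.359.

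*nlp-31*, whose peptide is known to act against microbes in vitro, had the smallest difference among the tested genes of the locus. Per kilobase its level was above that of *nlp-29* in wild-type larvae (37.3 against 22.3 CPM per kilobase) and below it in mutants (51.9 against 58.9). It stood at 15.5, 22.1 and 13.6 CPM in wild-type larvae and 24.1, 21.2 and 26.0 CPM in the mutant. Only wild-type library 2 reached into the mutant range (log2 fold change 0.48, SE 0.39, edgeR adjusted p = 0.531). *nlp-30* was at 0.528, 0.440 and 3.32 CPM against 3.04, 1.94 and 2.89 CPM. Its wild-type library 3 was above all 3 mutant libraries while the other two were below them, and its log2 fold change of 0.87 (SE 1.01, edgeR adjusted p = 0.671) became 2.45 without that library (adjusted p = 0.214).

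*nlp-34*, at the far end of the locus, was nearly silent in wild-type larvae and fell under the expression filter. It had 0, 2 and 1 counts in wild-type larvae and 42, 8 and 20 counts in the mutant. No wild-type library reached the lowest mutant one, and the ratio of summed counts was 23 (95% counting interval 7.56 to 114). Without an expression filter its edgeR adjusted p was 0.188, and in DESeq2 it was 0.0620. *nlp-32* and *nlp-33* lie elsewhere, on chromosomes III and V. *nlp-33* held 11.7, 11 and 11.8 CPM in wild-type larvae and 12.6, 14.3 and 7.47 CPM in the mutant, with means of 11.5 CPM in both groups (log2 fold change SE 0.47, edgeR adjusted p = 0.999), and its sign turned under other scalings. *nlp-32* was uneven within both groups, with 0, 21 and 0 counts in wild-type larvae and 0, 1 and 15 counts in the mutant.

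Of the 11 caenacins 1, *cnc-6*, rose in the mutant. The gene stands alone on the plus strand of chromosome III (1763522 to 1764902 in WBcel235), away from the other *cnc* genes, and has 2 exons. It had 1, 0 and 1 counts in the wild-type libraries and 83, 70 and 375 counts in the mutant libraries, or 3.24, 2.89 and 14.1 CPM in the latter. Every mutant library was far above the wild type, and mutant library 3 was well above the other mutant libraries. The ratio of summed counts was 260 (95% counting interval 71.7 to 2160), and the edgeR adjusted p was 0.0139. Without mutant library 3 the fitted log2 fold change went from 7.72 to 6.58 and the call was lost (adjusted p = 0.128). Against wild-type library 1 alone it was 7.0. Such a fit takes its spread from the mutant libraries and assumes that the lone library varies like them, so its adjusted p of 0.05 is no measure of stability. The adjusted p ran from 3.48e-07 (DESeq2) to 0.128 over the alternatives.

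In the caenacin locus of chromosome V no gene passed the test in edgeR. The locus holds *cnc-11*, *cnc-1*, *cnc-5*, *cnc-4*, *cnc-3* and *cnc-2* between 1442342 and 1450183 (WBcel235). *cnc-4* stood at 1.10, 3.08 and 0.0365 CPM in wild-type larvae and 11.4, 7.55 and 6.57 CPM in the mutant. The groups were clear of each other, yet wild-type library 3 held a single count and library 2 held 84, and the log2 fold change of 2.59 had an SE of 1.04 (edgeR adjusted p = 0.193). It was 3.91 without wild-type library 2 and 2.03 without library 3, both uncalled.

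*cnc-3*, next to it on the same strand, was at 2.35, 4.44 and 6.75 CPM in wild-type larvae and 2.11, 3.13 and 3.38 CPM in the mutant. The groups overlapped and the mean was lower in the mutant (log2 fold change -0.65, SE 0.74, edgeR adjusted p = 0.666). *cnc-2*, the caenacin best known for its control by DBL-1, was hardly detected. It had 1, 0 and 1 counts in wild-type larvae and 2, 12 and 15 counts in the mutant, a ratio of 14.3 (95% counting interval 3.62 to 124). *cnc-11* had 5 against 44 counts in all (ratio 8.68, interval 3.45 to 28.1), with every mutant library above the wild type. Neither was kept by the filter, and without it their edgeR adjusted p values were 0.369 and 0.382.

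The other tested caenacins differed by less than their errors. *cnc-8*, on chromosome X, had 2.51 ± 1.44 CPM in wild-type larvae and 2.52 ± 0.654 CPM in the mutant. *cnc-10* had 2.32 ± 1.75 and 3.07 ± 0.880 CPM (SD, n = 3 each). Wild-type library 1 was the lowest of all libraries in both, at 0.865 and 0.625 CPM. In edgeR the adjusted p values were 0.998 and 0.841, with log2 fold changes of 0.00 (SE 0.86) and 0.40 (SE 0.88). That of *cnc-8* was -0.03 without mitochondrial genes.

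By its mean *fipr-1* was the strongest of all these genes in wild-type larvae, though in wild-type library 1 *nlp-31* was higher (15.5 CPM). *fipr-1* was the single gene among them called lower. It lies on the minus strand of chromosome V (12361301 to 12361744 in WBcel235), in the opposite direction to *F23H12.5*, whose exons it does not overlap. It stood at 12.1, 44.7 and 82.1 CPM in wild-type larvae and 7.06, 4.0 and 4.69 CPM in the mutant. All mutant libraries lay below the wild type, but the wild-type libraries themselves spanned a wide range and library 1 was close to the mutant. The means were 46.3 ± 35.0 and 5.25 ± 1.60 CPM (SD, n = 3 each), 8.81-fold lower, with a log2 fold change of -3.14 (SE 0.61, edgeR adjusted p = 0.0241). Against wild-type library 1 alone the log2 fold change was -1.18, with an adjusted p of 0.350 that rests on the spread of the mutant libraries, and without library 3 it was -2.42 (0.0408). Removing wild-type library 2 (adjusted p = 0.0665) or any of the mutant libraries (0.121, 0.137 and 0.142) ended the call as well, and the adjusted p ran from 2.12e-05 (DESeq2) to 0.350 over the alternatives. Among wild-type libraries the one with the most *fipr-1* also had the largest mitochondrial share and the lowest intestinal and pharyngeal marker levels, and the one with the least had the reverse. Their part in the difference was not tested.

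Its neighbour *fipr-2* showed the same order of wild-type libraries in a milder form. It stood at 7.88, 15.3 and 22.7 CPM in wild-type larvae and 10.9, 13 and 7.51 CPM in the mutant, so that the groups overlapped (log2 fold change -0.55, SE 0.50, edgeR adjusted p = 0.587). *fip-2*, elsewhere on chromosome V, had 4.56, 15.9 and 24.3 CPM against 7.68, 5.81 and 6.76 CPM. Wild-type libraries 2 and 3 were above the mutant and library 1 below it (log2 fold change -1.14, SE 0.60, edgeR adjusted p = 0.313), and against library 1 alone the value turned to 0.58. An exon of *fip-2* overlaps *T27E4.5* on the other strand, and the strand setting of the counting is not given, so the reads of the 2 genes cannot be told apart.

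*fip-6* and *fipr-26*, adjacent genes on the minus strand of chromosome I (8945533 to 8947201 in WBcel235), were both weak in wild-type larvae and higher in each mutant library. They are named after their values were seen, because other tools called them. *fip-6* had 1, 5 and 0 counts in wild-type larvae and 39, 47 and 34 counts in the mutant, a ratio of 19.7 (95% counting interval 8.80 to 54.8). *fipr-26* had 0.0961, 0.513 and 1.28 CPM in wild-type larvae and 4.84, 6.02 and 2.89 CPM in the mutant. Neither group overlapped the other in either gene. The log2 fold changes were 4.25 (SE 1.36) and 2.85 (SE 1.02), and the adjusted p was 0.110 for *fip-6* and 0.148 for *fipr-26* in edgeR, and 0.0197 and 0.0207 in DESeq2. Single wild-type libraries moved these sizes: *fip-6* was at 5.88 without library 2 and 3.70 without library 3, and *fipr-26* at 3.88 without library 3 and 2.35 without library 1, none of them called. Against wild-type library 1 alone *fipr-26* was at 5.52 (adjusted p = 0.0458), with the spread taken from the mutant libraries.

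Another group on chromosome I, *fipr-22*, *fipr-23* and *fipr-24*, differs from the rest in gene structure. *fipr-22* and *fipr-23* have 5 exons and 573 coding bases each, against a median of 219 coding bases over the 55 genes, and face away from each other. Whether the counting split reads between them was not tested. *fipr-23* stood at 2.11, 2.27 and 0.256 CPM in wild-type larvae and 6.59, 7.46 and 4.77 CPM in the mutant, with no overlap (log2 fold change 2.02, SE 0.87, edgeR adjusted p = 0.224). *fipr-22* was at 5.24, 10.3 and 1.35 CPM against 13.2, 15.3 and 7.77 CPM, and overlapped through wild-type library 2 (1.10, SE 0.69, edgeR adjusted p = 0.403). Both genes were lowest in wild-type library 3, the library in which *fipr-1*, *fipr-2* and *fip-2* were highest.

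On chromosome X *fip-5*, *fipr-21* and *cnc-8* form a row of 3 genes from 3 families (10302741 to 10306951 in WBcel235). *fipr-21* had the steadiest wild-type level among the *fipr* genes, at 9.75, 8.47 and 8.98 CPM, and 7.37, 16.5 and 8.22 CPM in the mutant. Only mutant library 2 stood apart (log2 fold change 0.24, SE 0.51, edgeR adjusted p = 0.837). *fip-5* had 1.75 ± 0.619 and 2.36 ± 0.356 CPM (SD, n = 3 each; edgeR adjusted p = 0.825). *fip-4*, on chromosome V, had 2.74, 1.69 and 1.53 CPM in wild-type larvae and 4.17, 3.71 and 3.72 CPM in the mutant. Every mutant library was above the wild type, but the difference did not pass the test (log2 fold change 0.96, SE 0.77, edgeR adjusted p = 0.524). Its exons overlap *smk-1* on the other strand. The tested genes *fipr-3* and *fipr-13* stayed under 2 CPM in each library, with edgeR adjusted p values of 0.997 and 0.620. The *fipr-4* to *fipr-9* row of chromosome V was close to silent, with 0 to 5 counts per gene and library.

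Summed over neighbours, the rows of peptide genes separated the genotypes in both directions. Within 20 kb of another such gene lay 40 of the 55, in 12 rows, 6 of which held a tested gene. The *nlp-29* locus summed to 27.1, 52.5 and 32.2 CPM in wild-type larvae and 79.4, 78.4 and 59.9 CPM in the mutant. The caenacin locus summed to 3.56, 7.66 and 6.83 CPM against 13.8, 12.2 and 11 CPM, and *cnc-4* made most of the difference. For *fip-6* with *fipr-26* the sums were 0.144, 0.697 and 1.28 CPM against 6.36, 7.96 and 4.17 CPM. In these rows the mutant libraries were all higher. The groups met at 12.7 CPM for *fipr-22* to *fipr-24*, and for *fipr-1* with *fipr-2* the mutant was lower, at 18.0, 17.0 and 12.2 CPM against 19.9, 60.0 and 105 CPM. These sums are descriptions of rows seen in the annotation and carry no test.

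**Figure D3:**
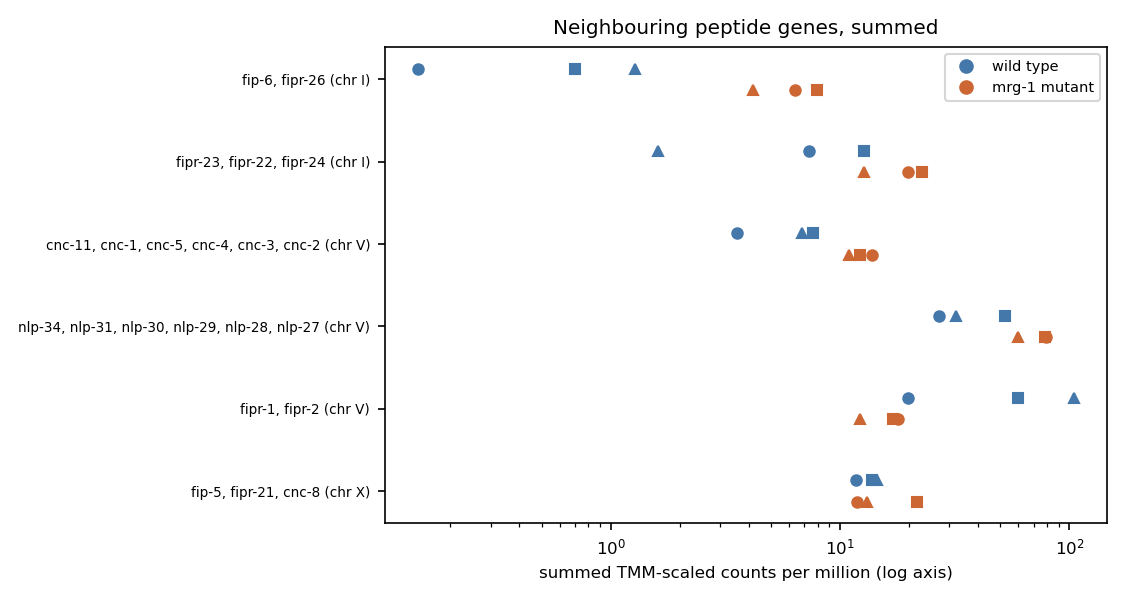
Summed TMM-scaled CPM on a log axis of the 6 rows of neighbouring peptide genes with a tested member (blue wild type, orange mutant; circle, square and triangle for replicates 1, 2 and 3). The *nlp-29* locus lies at 27.1 to 52.5 CPM in wild-type larvae and 59.9 to 79.4 CPM in the mutant, while *fipr-1* with *fipr-2* lies lower in the mutant.

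The summed level of the 55 peptide genes did not separate the groups on the TMM-scaled CPM scale, whereas the share of *fipr-1* in it did. The sum was 90.7, 179 and 205 CPM in wild-type larvae and 182, 193 and 152 CPM in the mutant, so the groups overlapped on that scale. As a share of all counts, mitochondrial ones included, the genes took 0.00981%, 0.0169% and 0.0144% in wild-type libraries 1, 2 and 3, and 0.0193%, 0.0224% and 0.0172% in the mutant, where every library was above the wild type. *fipr-1* supplied 13.3%, 24.9% and 40.0% of the peptide gene counts in wild-type libraries 1, 2 and 3, and 3.89%, 2.07% and 3.09% in the mutant. The other 54 genes summed to 78.6, 135 and 123 CPM in wild-type larvae and to 174, 189 and 147 CPM in the mutant, where every mutant library was above the wild type. Setting *fipr-1* aside was chosen after its values were seen.

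**Figure D4:**
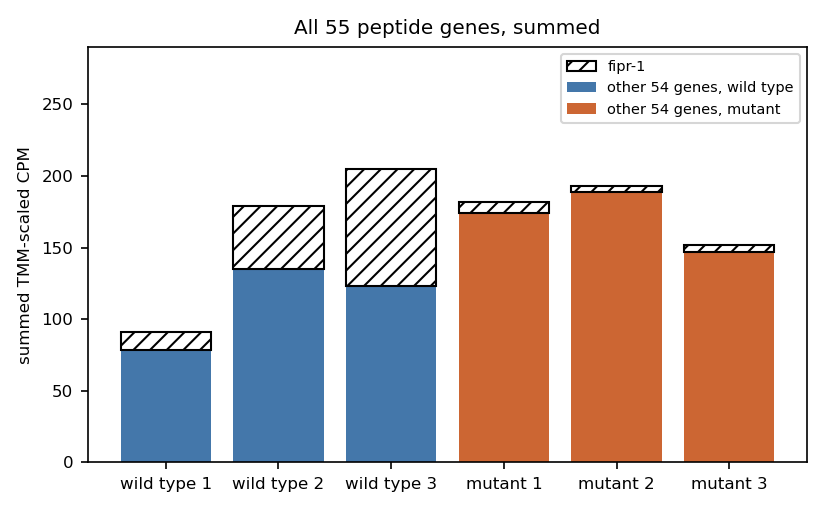
Summed TMM-scaled CPM of the 55 peptide genes in each library, with *fipr-1* hatched on top of the other 54 genes (blue wild type, orange mutant). The hatched part is large in wild-type libraries 2 and 3 and small in the mutant, and the solid bars reach 78.6 to 135 CPM in wild-type larvae and 147 to 189 CPM in the mutant.

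The tested peptide genes varied more between wild-type than between mutant libraries. Their median SD of log2 CPM was 0.87 among the former and 0.40 among the latter, against 0.72 and 0.42 over all tested genes. Wild-type library 1 was the lowest of its group in 11 of the 23 genes (47.8%), against 30.6% of all tested genes. Mutant library 3 was the lowest of its group in 10 (43.5%), against 34.6% of all genes, but highest in *cnc-6*.

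Among the listed regulators of the peptides, *dcar-1*, *tir-1*, *sta-2* and *cebp-1* rose in RNA of whole mutant larvae. From a list of 29 regulators written from general knowledge, 27 had a row in the table and all 27 were tested. Of these, 4 rose in the mutant (8 at an unadjusted p under 0.05) and 0 fell (0 at an unadjusted p under 0.05, and 0 in DESeq2 and in limma on the authors' deposited log2 values), beside the 1.75% and 0.847% of all tested genes given above for adjusted p values and the 9.29% and 10.2% for unadjusted ones. Their median log2 fold change was 0.46, against -0.03 for all tested genes. The list was written with earlier results of these data known, and no test compared it with other genes. In which tissue the regulators rose was not tested. Medians of the marker lists were 0.77 for body wall muscle, 0.61 for pharynx, 0.36 for neurons and 0.29 for intestine. For germ line and epidermis they were -0.49 and -0.59.

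Of those 4 genes, *dcar-1*, *tir-1* and *sta-2* sit at different steps of the p38 route, and *cebp-1* is described apart from it below. *dcar-1*, the receptor for a tyrosine metabolite that signals a damaged epidermis, stood at 75.9, 59.5 and 64.4 CPM in wild-type larvae and 188, 141 and 198 CPM in the mutant. *tir-1*, the SARM-like adaptor at the head of the p38 cascade, stood at 162, 169 and 185 CPM against 458, 281 and 602 CPM. *sta-2*, the STAT-like factor needed for *nlp-29* induction, stood at 85.2, 101 and 76.9 CPM against 218, 197 and 213 CPM. In all of these the wild-type libraries lay close together and every mutant library was above them.

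*cebp-1*, a C/EBP transcription factor held in check by the Tribbles-like protein NIPI-3, stood at 64.2, 56.5 and 39.2 CPM in wild-type larvae and 109, 147 and 203 CPM in the mutant. The log2 fold changes were 1.40 (SE 0.28) for *dcar-1*, 1.38 (SE 0.30) for *tir-1*, 1.26 (SE 0.26) for *sta-2* and 1.52 (SE 0.33) for *cebp-1*, with edgeR adjusted p values of 0.0282, 0.0381, 0.0337 and 0.0373. Of these calls 0 to 1 held in edgeR without 1 of the mutant libraries, and 0 without wild-type library 2. Against wild-type library 1 alone the log2 fold changes were 1.23 to 1.48 and 0 were called, with the spread taken from the mutant libraries. Without wild-type library 1 the count of regulators called higher was 7, and without library 3 it was 3.

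The kinases between *tir-1* and *sta-2* did not pass the test. The MAP3 kinase gene *nsy-1* was at 190 ± 21.6 CPM in wild-type larvae and 264 ± 10.9 CPM in the mutant. The MAP2 kinase gene *sek-1* was at 244 ± 85.8 and 201 ± 18.8 CPM, and the p38 kinase gene *pmk-1* at 78.4 ± 11.6 and 61.5 ± 25.3 CPM (SD, n = 3 each). In edgeR the adjusted p values were 0.310, 0.647 and 0.626. Of the G protein and lipid signalling genes that act before *tir-1*, the phospholipase gene *egl-8* and the protein kinase C gene *tpa-1* had log2 fold changes of 0.68 and 0.55 with no overlap of the groups, and the G alpha gene *gpa-12* and the phospholipase gene *plc-3* had -0.19 and -0.10. Their edgeR adjusted p values lay between 0.167 and 0.899. *nipi-3* was at 154 ± 47.3 and 298 ± 53.7 CPM, with an adjusted p of 0.102 in edgeR and 0.0468 in DESeq2.

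No tested gene listed for DBL-1 signalling passed the test in edgeR (0 at an unadjusted p under 0.05 other than *sma-9*) or DESeq2. The list took in general parts of that signalling. Of its Smads and their cofactor, only SMA-3 is named above for the caenacin route. The ligand gene *dbl-1* stood at 66.8 ± 35.8 CPM in wild-type larvae and 48.0 ± 10.8 CPM in the mutant. The receptor genes *sma-6* and *daf-4* had log2 fold changes of 0.76 and 0.31, and the Smad genes *sma-2*, *sma-3* and *sma-4* had 0.76, -0.17 and 0.30. *sma-9*, a zinc finger cofactor of the Smads, had 409 ± 123 and 735 ± 54.1 CPM (SD, n = 3 each), and every mutant library was above the wild type. Its edgeR adjusted p was 0.119, the lowest of the genes listed for DBL-1 signalling. Of the genes known to keep the peptides low, *dapk-1* was at 51.0, 18.3 and 5.55 CPM in wild-type larvae and 63.5, 53.6 and 51.3 CPM in the mutant, where wild-type library 1 all but reached the mutant (edgeR adjusted p = 0.295). The epidermal GATA factor gene *elt-3* was at 39.3, 58.4 and 124 CPM against 45.7, 43.8 and 77.6 CPM, with full overlap (edgeR adjusted p = 0.630). Log2 fold changes of the last 6, *snf-12*, *rack-1*, *atf-7*, *akir-1*, *osm-11* and *ptr-23*, ran from -0.21 to 0.76 and none was called.

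**Figure D5:**
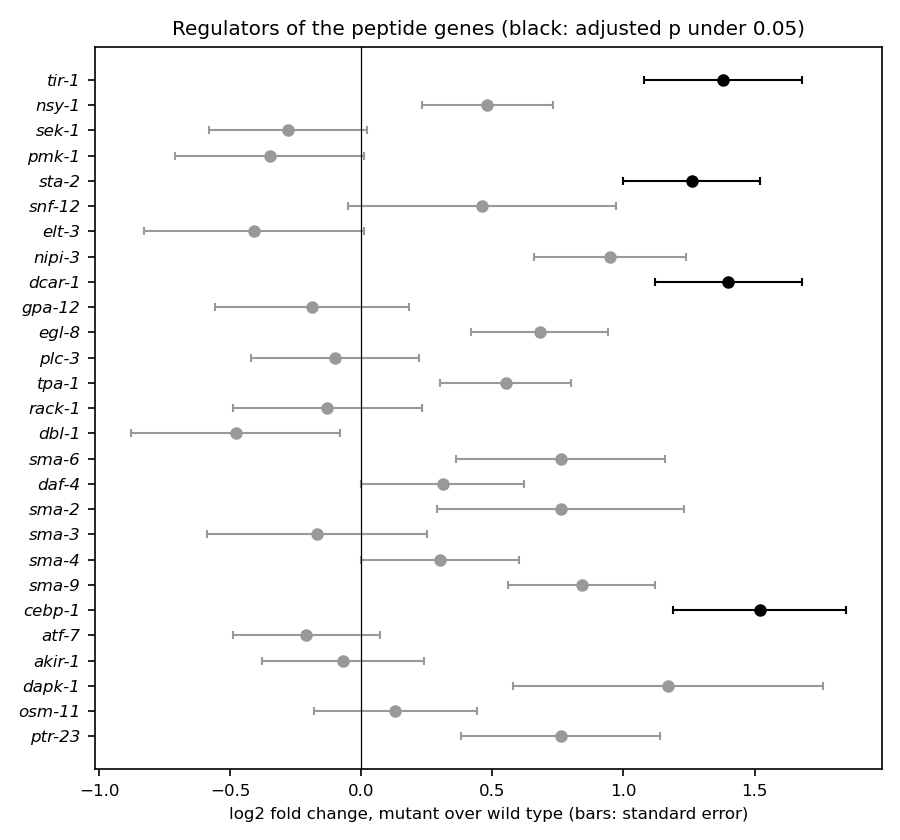
Log2 fold change of mutant over wild type for the 27 regulators tested, with bars of 1 standard error; called genes are black. *dcar-1*, *tir-1*, *sta-2* and *cebp-1* lie between 1.26 and 1.52, and *sek-1*, *pmk-1* and *elt-3* lie a little below 0.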

How the data were processed

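Deposited by the authors were raw counts of 20392 genes, gene lengths, and normalized log2 values. These log2 values equal, when recomputed, log2(count scaled to a library total of 24838462, plus 8). Per the submitters' processing notes the build is ce10. The sources used here do not give aligner, counter, annotation or strand setting. Positions and exons are those of WBcel235 (Ensembl release 115), looked up by gene identifier and not converted. Symbols came from a table of gene identifiers, and all 55 members matched. Unmapped sample columns numbered 0. The labels state total RNA, a PicoPure extraction with DNase and NuGEN Ovation libraries.

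edgeR 4.0.16 (R 4.3.3) compared the groups by its quasi-likelihood test, with TMM factors, its default expression filter (minimum 10 counts), no covariate and a Benjamini-Hochberg threshold of 0.05. The fit was checked on simulated data with known changes. In those data both groups had the same spread, whereas the real wild-type libraries varied more than the mutant ones, so unequal spread was not checked. Standard errors are the absolute log2 fold change divided by the root of F. CPM are TMM-scaled. Ratios of summed counts carry exact 95% binomial intervals, which cover counting error only. Alternatives were DESeq2 1.42.0, limma 3.58.1 on the deposited log2 values, other scalings and filters, mitochondrial genes left out, a replicate block and each library left out. A comparison with wild-type library 1 alone was added after seeing the data; its spread is that of the mutant libraries. Figures were drawn with matplotlib 3.10.9.

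The members and lists were chosen with earlier results of these data known. Named are *mrg-1*, called members, the *nlp* and *cnc* members by value or count, of the *fip* and *fipr* members the 6 highest per kilobase and up to 6 largest changes with at least 5 CPM and no overlap, and called list genes or the 2 with the smallest p; members called by another tool were added after their values were seen. A rule on protein identity was not applied, since no sequences were used here.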

Additional observations from a re-analysis of the deposited data

How the results depend on the processing

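Over 14 alternatives, 15 of the 23 tested peptide genes kept the sign of their log2 fold change and 8 did not, and 5 were called under at least 1 of them. The counts of peptide genes called higher and lower were 1 and 1, and rose to 3 higher in DESeq2 and 4 higher in limma on the deposited log2 values. Against wild-type library 1 alone, with the spread of the mutant libraries, 0 peptide genes were lower, 0 regulators were higher and 74 genes in all were lower. Leaving out 1 library gave 0 to 1 peptide genes higher, 0 to 1 lower, 0 to 7 regulators higher and 0 lower, and over all genes 35 to 559 higher and 0 to 484 lower. All genes called were 236 higher and 114 lower; DESeq2 called 832 and 666, the unfiltered fit 434 and 300, limma on the deposited log2 values 480 and 34, and library totals alone 204 and 11. The last 2 moved the median log2 fold change of all tested genes from -0.03 to 0.35 and 0.27. The causes of these shifts were not tested.

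Same-numbered libraries of the 2 groups did not deviate together (correlations of -0.005, 0.043 and 0.093). With the replicate number as a block the counts were 1 and 1 peptide genes, 4 and 0 regulators, and 290 and 141 genes in all.

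Signs turned in these 8 genes. For *nlp-33* the log2 fold change was 0.01 in DESeq2, with median-of-ratios factors and without a filter, 0.30 under library totals and 0.26 in limma on the deposited values, and -0.17 to 0.23 with 1 library left out. For *cnc-8* it was -0.03 without mitochondrial genes and -0.40 to 0.35 with 1 library left out. For *fipr-3* it was 0.54 under library totals, 0.56 on the deposited values, 0.00 without a filter, 0.80 with the replicate block, 6.87 against wild-type library 1 alone, where that library had 0 counts, and -0.58 to 1.96 with 1 library left out. Against wild-type library 1 alone *cnc-3*, *fip-2* and *fipr-2* turned to 0.30, 0.58 and 0.43. Leaving out 1 library gave -0.05 to 1.13 for *cnc-10* and -0.19 to 0.46 for *fipr-21*. Most silent members had too few counts to test at this depth.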

Other observations

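Marker genes of other tissues, listed from general knowledge, gave no call in edgeR. Of all tested genes 9.29% were higher and 10.2% lower at an unadjusted p under 0.05. In body wall muscle 0 of 6 were called (4 higher at an unadjusted p under 0.05, and 1 higher in DESeq2), with log2 fold changes of 0.99 for *myo-3* and 0.79 for *unc-15* (adjusted p = 0.0802 and 0.128). Neuronal markers had 0 of 8 called (2 higher unadjusted, 0 in DESeq2), with 0.68 for both *egl-3* and *egl-21* (adjusted p = 0.149 and 0.174). Intestinal markers had 0 of 10 called (1 higher unadjusted, 0 in DESeq2), led by *ges-1* at 2.02 and *elt-2* at 1.24 (adjusted p = 0.238 and 0.328). Neither pharynx (6 tested, led by *myo-2* and *myo-1*) nor germ line (4 tested, led by *vbh-1* at -0.46 and *glh-1* at -0.53) had a call, with 0 at an unadjusted p under 0.05 and 0 in DESeq2. Summed levels of muscle markers were 5720 to 9310 CPM in wild-type and 10800 to 12700 CPM in mutant libraries. For neurons they were 1960 to 2280 and 2810 to 3550 CPM, and for germ line 174 to 296 and 156 to 164 CPM.

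Of the 11 tested epidermal markers 2 were higher in every mutant library than in any wild-type one (*rol-6*, and the junction gene *ajm-1* at 221 to 368 against 401 to 440 CPM) and 5 were lower (*lin-26*, *elt-1*, *nhr-23*, *nhr-25* and *che-14*), where 14.4% and 12% of all tested genes were. Only *rol-6* was called in edgeR. Of those that were lower *nhr-23*, a nuclear receptor gene of the moulting cycle, had the smallest p, with a log2 fold change of -1.45 (adjusted p = 0.0899 in edgeR and 0.0237 in DESeq2).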
